A study of Mus musculus with 2 samples.

Results

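The Zbtb genes encode a family of transcription factors, and their promoters were examined for YY1 in muscle stem cells. The members were chosen by symbol: every protein-coding gene of the GENCODE basic annotation of the mouse genome (GRCm38, release M21) whose symbol begins with Zbtb and a digit, which gave 41 of 21938 protein-coding genes on the nuclear chromosomes. A gene was called bound when the summit of a YY1 peak, the base with the highest pileup of fragments, lay within 1000 bp of one of the gene's transcript starts. This gave 20 bound and 21 unbound Zbtb genes.

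YY1 is a zinc-finger protein that binds promoters and enhancers and can activate or repress transcription. In ChIP-seq an antibody pulls down a protein together with its DNA, and the sites it occupied are seen as pileups of the sequenced fragments. MuSCs, the stem cells of skeletal muscle, were pooled from several Ctrl mdx mice (Pax7CreERT2/R26YFP; Yy1+/+; mdx), which lack dystrophin, carry both wild-type Yy1 alleles, and express a Cre under Pax7 that switches on YFP in MuSCs after tamoxifen. The pool gave 1 YY1 ChIP library and was set against 1 background library, named input in the labels and IgG in the study's methods. The paper describes the cells as freshly isolated, whereas the growth protocol in the labels describes cultured cells, and the age of the pooled mice is not given in the sources used here. There were no replicates, so no value below carries an error between animals or libraries, and all intervals cover counting error only. A list of peaks holds no expression values, so the labelled cell type could not be checked against its markers. The list had 4681 peaks, at a depth of 13357713 fragments computed from the local background of the peaks.

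Zbtb proteins join a BTB domain, with which they pair with one another and recruit corepressors such as Ncor1 and Bcor, to C2H2 zinc fingers that read DNA. Many act as repressors and as switches of cell fate, with the best known roles in lymphocytes. In muscle, Zbtb18 (RP58) represses inhibitors of myogenic differentiation, and Zbtb42 is expressed at the neuromuscular junction. Zbtb8os takes its symbol from lying on the strand opposite Zbtb8a: it encodes archease, a factor of tRNA ligation, and is no BTB protein.

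The sequences are shown first, to let the peaks with the YY1 motif be read beside those without it. The motif that the study gives for YY1 is AANATGGC. Matches on either strand were sought near each summit and each gene's 5′-most start site (100 bp to each side) and over each whole peak. It was found at 5 Zbtb genes, of which 3 were bound (Zbtb40, Zbtb17 and Zbtb8os) and 2 were not (Zbtb22 and Zbtb11). Each site is printed with 11 bases on either side on the strand that reads AANATGGC, which is in capitals, with GRCm38 coordinates.
Zbtb40, chr4:137048758-137048787, minus strand: tccccggccccAAGATGGCtgccttttggc
Zbtb17, chr4:141444695-141444724, plus strand: cgcccggttctAACATGGCggcgccctttg
Zbtb8os, chr4:129335610-129335639, minus strand: ggcctgctaagAAGATGGCtgcgcatgagc
Zbtb22, chr17:33916187-33916216, plus strand: ggagtcggcacAAGATGGCggcgggagggg
Zbtb11, chr16:55973802-55973831, minus strand: tggcgactgacAAAATGGCtgctgcaccac

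Zbtb40 had the motif 2 bp from its summit, 77 bp upstream of its start site and on the strand of the gene. In Zbtb17 the motif lay inside the peak but 252 bp from the summit, in the untranslated part of an exon, 55 bp downstream of the start site. The site of Zbtb8os was 294 bp from the nearest summit, across the edge of its peak and partly inside it, 71 bp upstream of the start site. Zbtb22 and Zbtb11 carried the motif 30 bp downstream and 67 bp upstream of their start sites, and their nearest summits were 6734 bp and 55927 bp away from the motif.

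The 3 peaks with the highest enrichment among the Zbtb genes held neither AANATGGC nor its core ATGGC within 100 bp of the summit. Their summits are shown with 50 bp to each side, on the strand of the gene and all in lower case, since no letters of the motif were there to mark. The promoter shared by Zbtb1 and Zbtb25 comes last, on the strand of Zbtb1, with the core ATGGC, 9 bp from the summit, in capitals.
Zbtb44, chr9:31030381-31030481, plus strand: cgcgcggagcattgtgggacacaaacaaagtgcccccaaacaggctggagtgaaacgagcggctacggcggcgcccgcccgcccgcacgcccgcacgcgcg
Zbtb2, chr10:4386884-4386984, minus strand: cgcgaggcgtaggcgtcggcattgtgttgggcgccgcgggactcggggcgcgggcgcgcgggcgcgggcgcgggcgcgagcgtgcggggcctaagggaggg
Zbtb14, chr17:69383616-69383716, plus strand: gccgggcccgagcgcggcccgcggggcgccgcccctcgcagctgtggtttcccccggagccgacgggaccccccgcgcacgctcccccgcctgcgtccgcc
Zbtb1 and Zbtb25, chr12:76369963-76370063, plus strand: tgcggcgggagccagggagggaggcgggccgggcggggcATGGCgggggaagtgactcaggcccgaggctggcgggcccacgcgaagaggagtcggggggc

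The first question was how often YY1 sat at the promoter of a Zbtb gene. A summit lay within 1000 bp of a start site in 20 of 41 Zbtb genes, 48.8% (95% exact Clopper-Pearson interval 32.9 to 64.9), against 18.8% of all protein-coding genes, 4119 of 21938. The interval of the Zbtb genes lay wholly above that background. Genes are not replicates of a condition, and no test was made between the shares. Without Zbtb8os the count was 19 of 40, 47.5%. When only peaks with a fold of 5 or more counted, 13 Zbtb genes remained (31.7%), against 11.1% of all protein-coding genes.

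Of the 3 families compared, which share the BTB domain, the zinc fingers or both, 2 had lower shares than the Zbtb genes. Of the Zfp genes, a large group of mostly C2H2 zinc-finger genes, 22.8% were bound (90 of 394, interval 18.8 to 27.3). Of the Klhl genes, which carry a BTB domain with kelch repeats in place of zinc fingers, 25.0% were bound (9 of 36, interval 12.1 to 42.2), an interval that overlaps that of the Zbtb genes. The third comparison, 8 BTB zinc-finger genes named outside the Zbtb series, gave 6 of 8 (75.0%, interval 34.9 to 96.8): Bcl6, Hic1, Hic2, Patz1, Gzf1 and Zfp131 were bound, and Bcl6b and Mynn were not. By its symbol Zfp131 was also counted among the Zfp genes.

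**Figure D1:**
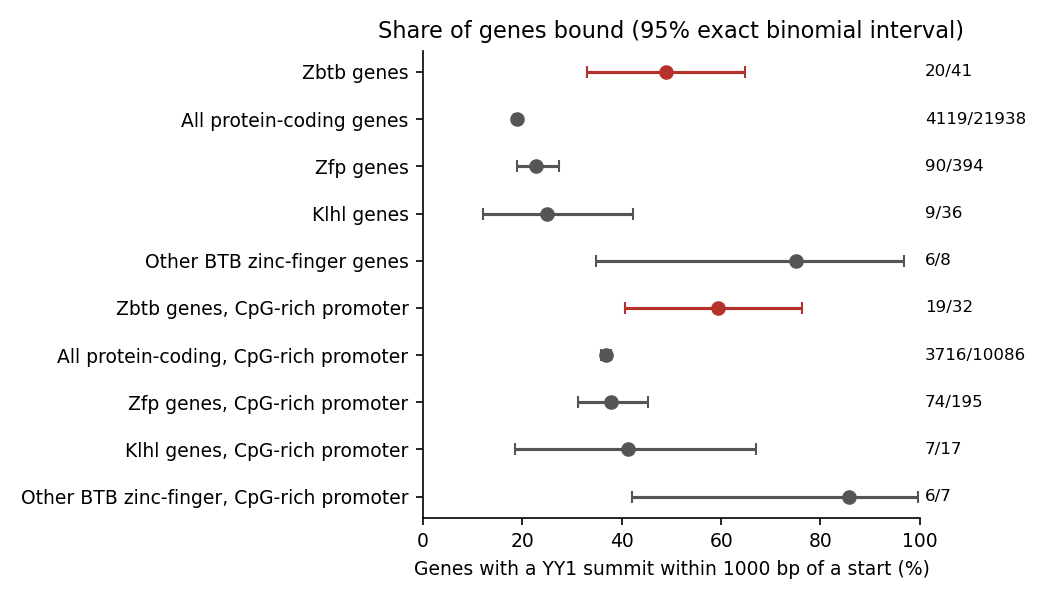
Share of genes with a YY1 summit within 1000 bp of a start site (x axis, percent) for each group of genes (y axis), with points for the share, bars for 95% exact binomial intervals and the counts at the right. The 20 of 41 Zbtb genes (48.8%) sit above all protein-coding genes (18.8%), and among genes with a CpG-rich promoter the values are 59.4% and 36.8%, while the other BTB zinc-finger genes are higher in both sets (75.0% and 85.7%).

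Promoter composition was set beside these shares. A promoter was called CpG-rich when the 500 bp on each side of the 5′-most start site held at least 50% G and C and a ratio of observed to expected CpG of at least 0.6. Such promoters belonged to 32 of 41 Zbtb genes (78.0%) and to 46.0% of all protein-coding genes, to 49.5% of Zfp genes, 47.2% of Klhl genes and 87.5% of the other BTB zinc-finger genes. The Zfp and Klhl intervals overlapped for bound genes and also for CpG-rich promoters (44.4 to 54.5 and 30.4 to 64.5). Among the genes with a CpG-rich promoter, 19 of 32 Zbtb genes were bound (59.4%, interval 40.6 to 76.3), against 36.8% of all protein-coding genes. The same share was 37.9% in Zfp genes (74 of 195, interval 31.1 to 45.2), 41.2% in Klhl genes (7 of 17, interval 18.4 to 67.1) and 85.7% in the other BTB zinc-finger genes (6 of 7, interval 42.1 to 99.6). The Zbtb interval overlapped those of all 3 families. The Zbtb share stayed above the protein-coding share within CpG-rich promoters, by a smaller factor than over all genes, since the protein-coding share rose from 18.8% to 36.8%. Whether composition plays a part in the higher share was not tested, since this split only counts genes in 1 library.

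The number of start sites, which widens the window a gene offers, was looked at in the same way. Among CpG-rich promoters with 1 start position, 7 of 12 Zbtb genes were bound (58.3%, interval 27.7 to 84.8), against 33.9% of protein-coding genes. With 2 or more start positions, 12 of 20 Zbtb genes were bound (60.0%, interval 36.1 to 80.9), against 39.3%. In both strata the interval of the Zbtb genes reached below the background value.

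Within the family, the composition of bound and unbound members was compared. Of the 20 bound genes 19 had a CpG-rich promoter (interval 75.1 to 99.9%), and of the 21 unbound genes 13 did (61.9%, interval 38.4 to 81.9). The intervals overlap between 75.1 and 81.9%. At a stricter CpG ratio of 0.75 the unbound share was 38.1%, and that of bound genes was still 19 of 20. A CpG-rich promoter was also common among bound genes at large: 3716 of the 4119 bound protein-coding genes had one. The median content of G and C around the start site was 70.0% in bound Zbtb genes (57.1 to 78.4). In unbound Zbtb genes it was 60.3% (40.6 to 69.5), so the ranges overlapped. Among all bound protein-coding genes the median was 62.6%. Over all protein-coding genes, 3.4% of those without a CpG-rich promoter were bound, and among the Zbtb genes 1 of 9 was. That gene was Zbtb7b, which encodes ThPOK, the factor that sets the CD4 T cell fate, with a ratio of 0.47 and 61.8% G and C. The 8 unbound genes of that class were Zbtb3, Zbtb6, Zbtb8b, Zbtb18, Zbtb20, Zbtb26, Zbtb32 and Zbtb38.

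**Figure D2:**
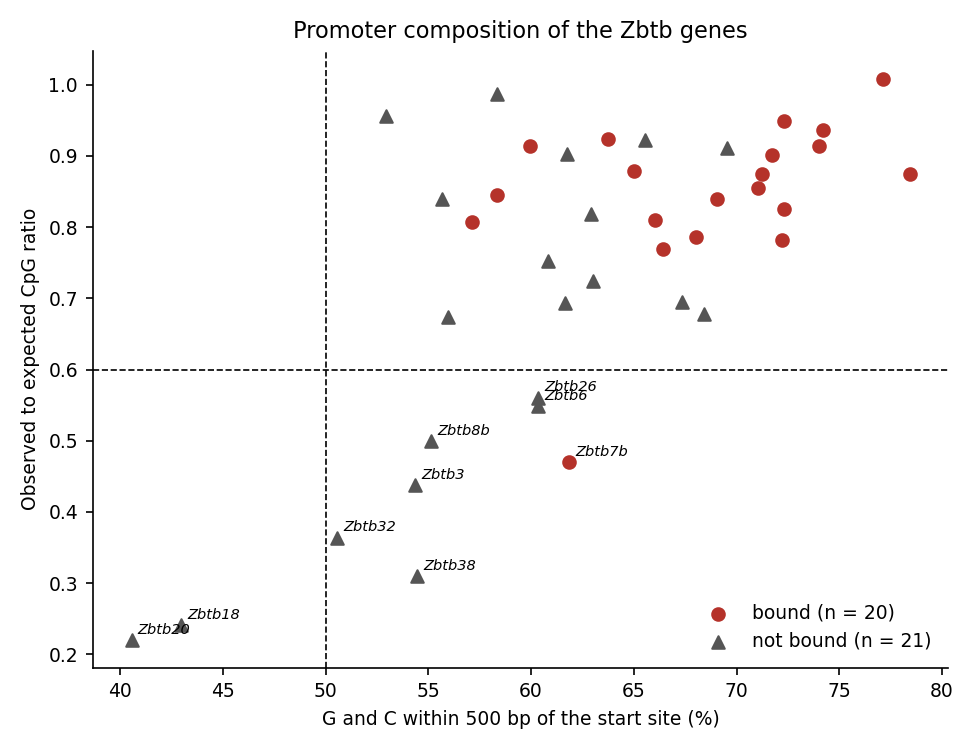
Composition of the 1 kb around the 5′-most start site of each Zbtb gene: G and C in percent (x axis) against the ratio of observed to expected CpG (y axis), with circles for the 20 bound and triangles for the 21 unbound genes and dashed lines at the limits of the CpG-rich class (50% and 0.6). All bound genes but Zbtb7b lie in the upper right field, and 8 of the 9 labelled genes outside it are unbound.

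The 20 bound genes shared 19 peaks, since Zbtb1 and Zbtb25 had one in common, and no gene had more than 1 promoter peak. Fold enrichment is the ratio, as the authors' peak caller computed it, of fragments at the summit to the local background, with 1 added to both. The members ranged from 2.86 to 9.26, with a median of 5.32 (interval 4.73 to 6.31). The median over all bound protein-coding genes, 5.13, lay inside that interval, and 10 of the 20 members were above it. Of the 19 peaks, 10 had the lowest local background of the list, 1.54 fragments (52.6%, interval 28.9 to 75.6, against 29.9% of all peaks at protein-coding promoters).

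Zbtb44 had the highest value, with 24 fragments where the local background was 1.7, a ratio of 9.26. Only 1.54% of all peaks at protein-coding promoters were higher. The exact Poisson interval of 24 fragments is 15.4 to 35.7, which with the background held fixed gives a fold of 6.07 to 13.6. Of the other 18 Zbtb peaks, 17 had an interval that overlapped this one, so that the order of most members lies within counting error. The exception was the peak of Zbtb8os, at 2.86 (1.71 to 4.54).

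**Figure D3:**
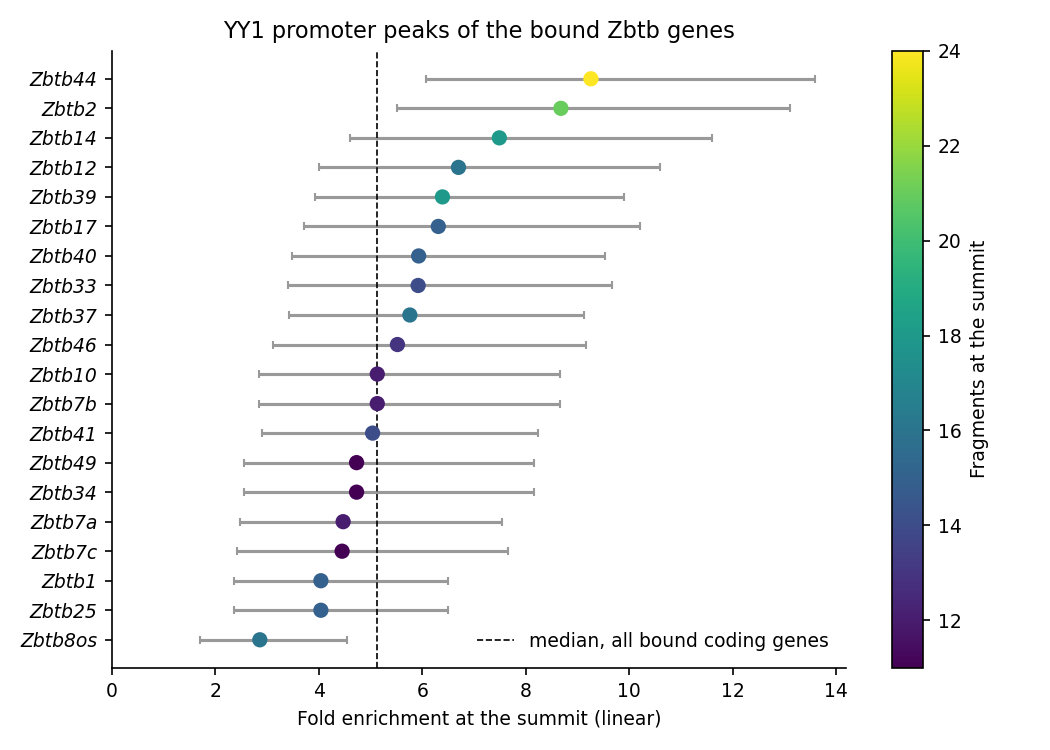
Fold enrichment at the summit of the promoter peak (x axis, linear scale) of each of the 20 bound Zbtb genes (y axis), with bars for the exact Poisson interval of the fragments at a fixed local background and colour for the number of fragments. The values fall from 9.26 for Zbtb44 to 2.86 for Zbtb8os around the dashed line, the median of 5.13 over all bound protein-coding genes, and the bar of each gene but Zbtb8os overlaps that of Zbtb44.

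Counts by role are small, and their intervals are wide. Each role group is a fixed list, made with earlier results of these data known, and not a full survey of the family. The counts therefore depend on which members were listed. Of the 4 members listed for the cell cycle and the p53 pathway, 3 were bound (75.0%, interval 19.4 to 99.4, against 18.8% of all protein-coding genes). Zbtb2, a repressor of the p53 pathway and of the cell cycle inhibitor Cdkn1a, had the second highest value of the family, 8.68, from 21 fragments over 1.54. Its summit, in an intron 541 bp downstream of the start site, was the farthest from a start site among the bound genes. Zbtb17, which encodes Miz-1, the partner through which Myc represses inhibitors of the cell cycle, had 15 fragments over 1.54, a fold of 6.31, with the summit 307 bp into the gene. Zbtb7c had 11 over 1.7, a fold of 4.45, 28 bp downstream of its start site on chromosome 18. Zbtb5 was the unbound member, with its nearest summit 256 kb away, the farthest of all Zbtb genes.

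Of the 9 members listed for lymphocyte and myeloid lineages, 6 were bound, Zbtb17 among them (66.7%, interval 29.9 to 92.5, against 18.8% of all protein-coding genes). The interval includes the 48.8% of the whole family. Zbtb46, a marker of classical dendritic cells, had 13 fragments over 1.54, a fold of 5.52, with the summit 27 bp upstream of the start site. Zbtb7b had 12 over 1.54, a fold of 5.13, with the summit 535 bp upstream. Zbtb7a, a repressor of fetal globin and a regulator of B cell against T cell fate, had 12 over 1.91, a fold of 4.47, and its summit 214 bp upstream. The summit of Zbtb7a was placed in an intron of a longer transcript.

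Zbtb1, needed for the development of lymphocytes, and its neighbour Zbtb25 are read in opposite directions from starts that lie 664 bp apart. A single peak of 1037 bp, the widest of the 19, began between the starts and ran past that of Zbtb1 into the gene, without reaching that of Zbtb25, with 15 fragments over 2.96 and a fold of 4.04. The summit was 253 bp from the start of Zbtb1 and 411 bp from that of Zbtb25, in both cases upstream, so the peak cannot be given to either gene alone. The unbound members of this group were Zbtb16 (PLZF, known from natural killer T cells), Zbtb20 and Zbtb32.

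Of the 3 members listed for binding methylated DNA, Zbtb33, which encodes Kaiso, was bound, with 14 fragments over 1.54 and a fold of 5.92. Its summit fell on the start site itself, 0 bp away. Zbtb4 and Zbtb38 were not bound. Of the 4 members listed for telomeres and genome maintenance, Zbtb40 had 15 fragments over 1.7 and a fold of 5.93. Zbtb10 had 12 over 1.54 and a fold of 5.13, with the summit 249 bp downstream of the start site. The unbound members were Zbtb24, mutated in an immunodeficiency with unstable centromeres, and Zbtb48, a telomere-binding protein. Neither of the genes listed for skeletal muscle, Zbtb18 and Zbtb42, was bound. The counts of these last groups, 1 of 3 (interval 0.84 to 90.6%), 2 of 4 (6.76 to 93.2%) and 0 of 2 (up to 84.2%), all have intervals that include 18.8% and 48.8%.

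The other 20 genes were given no role here, and 9 of them were bound (45.0%, interval 23.1 to 68.5, against 18.8% of all protein-coding genes). Zbtb14, which recognises GC-rich DNA, had 18 fragments over 1.54 and a fold of 7.49, the third highest value. Zbtb12 followed with 16 over 1.54 and 6.7, and Zbtb39 with 18 over 1.98 and 6.39. Lower values were those of Zbtb37 (16 over 1.95, 5.76) and Zbtb41 (14 over 1.98, 5.04). The q-values of these 5 genes ran from 2.93e-10 for Zbtb14 to 2.59e-05 for Zbtb41.

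Zbtb49 and Zbtb34 had the same pair of counts, 11 fragments over 1.54, and the same fold of 4.73. The lowest value was that of Zbtb8os, whose 16 fragments stood over the highest local background of the family, 4.94. Its q-value of 0.0285 was the one Zbtb value above 0.01. The q-values compare 1 pair of libraries and say nothing of the spread between mice.

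The position of the summit against the start site was the next question. It lay upstream in 14 of 20 genes (70.0%, interval 45.7 to 88.1), downstream in 5 and on the start site in 1, while 50.9% of all bound protein-coding genes had it upstream. The median distance was 213.5 bp, from 0 to 541, against 104 bp over all bound protein-coding genes, and 7 of 20 (35.0%, interval 15.4 to 59.2) lay within 100 bp, against 48.8%. Both intervals include the share over all bound protein-coding genes. No summit of the 20 genes fell in a coding exon (interval up to 16.8%): 12 lay outside the gene's basic transcripts, 5 in introns and 3 in untranslated exon sequence. The same counts over all bound protein-coding genes are not given here, so these are not shown to be particular to the family.

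**Figure D4:**
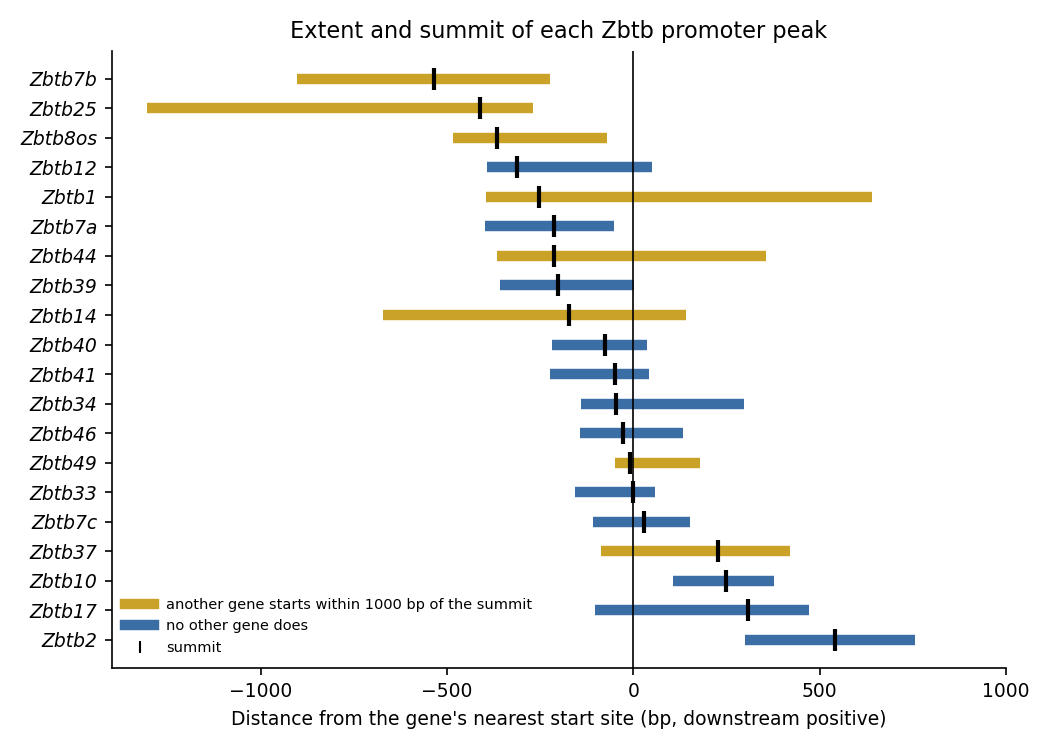
Extent (bars) and summit (black ticks) of the promoter peak of each bound Zbtb gene, as the distance in bp from the gene's nearest start site with downstream positive (x axis). Summits run from 535 bp upstream in Zbtb7b to 541 bp downstream in Zbtb2, and gold bars mark the peaks at which another gene also starts within 1000 bp of the summit.

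Other genes started within 1000 bp of the summit at 7 of the 19 Zbtb peaks (36.8%, interval 16.3 to 61.6, against 30.5% of peaks at protein-coding promoters). At Zbtb49 the start of Lyar, a nucleolar zinc-finger gene on the other strand, was 13 bp from its own, and the summit was 5 bp from Lyar and 8 bp from Zbtb49. Zbtb37 and Gas5, a host gene of small nucleolar RNAs, overlap at their 5′ ends on opposite strands, with starts 241 bp apart, and the summit was 14 bp from the start of Gas5 and inside Zbtb37. The small nucleolar RNA gene Gm26224 also started within the window. The summit of Zbtb8os was 40 bp from the start of Rbbp4, which encodes a histone-binding protein, and 365 bp from its own.

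The remaining partners were the noncoding genes Gm15417 at Zbtb7b, Gm29724 at Zbtb44 and AC122487.1 at Zbtb14. Gm15417 was the closer of its pair, 393 bp from the summit against 535 bp. In all, the nearest start of any gene was the Zbtb gene's own in 15 of 20 cases (75.0%, interval 50.9 to 91.3, against 83.2% of all bound protein-coding genes), and a pileup of fragments does not say which gene of a pair it serves.

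Full motifs were scarce under the Zbtb peaks. AANATGGC lay within 100 bp of the summit at 1 of 19 peaks (5.26%, interval 0.133 to 26.0), that of Zbtb40, against 7.55% of all 3777 peaks at protein-coding promoters. Over the whole peak it was found at 2 (10.5%), Zbtb40 and Zbtb17, against 14.9%. The core ATGGC, which AANATGGC contains, lay within 100 bp at 5 of 19 peaks (26.3%, interval 9.15 to 51.2), against 30.6%. These were the peaks of Zbtb40, Zbtb17, Zbtb34, Zbtb8os and the pair Zbtb1 and Zbtb25. With 19 peaks, none of these shares can be set apart from the background.

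Around the start sites themselves, AANATGGC was found in 5 of 41 Zbtb genes (12.2%, interval 4.08 to 26.2) and in 5.39% of all protein-coding genes. In the RefSeq promoter sequences of GRCm38, which run from 250 bases before to 50 after each start, 36 of the 41 genes were matched by symbol. The motif was present in 3 of those 36 (8.33%), Zbtb11, Zbtb17 and Zbtb22, and in 6.96% of 27025 genes. Of the printed sequences, those of Zbtb11 and Zbtb22 show that the letters at a start site were not accompanied by a peak in this library.

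After the summit sequences had been seen, 3 other short words were counted within 100 bp of the summit on both strands. GGGCGG, the GC box read by Sp factors, was at 15 of 19 Zbtb peaks (78.9%, interval 54.4 to 93.9) and at 65.6% of all peaks at protein-coding promoters. CGGAAG, the core read by ETS factors, was at 6 of 19 (31.6%, against 26.4%), those of Zbtb33, Zbtb34, Zbtb37, Zbtb41, Zbtb49 and Zbtb7a. TGACGT, the start of the cAMP response element, was at 2 of 19 (10.5%, against 8.34%), those of Zbtb33 and Zbtb41. GC boxes were thus common under the Zbtb peaks, at a share whose interval includes that of promoter peaks at large.

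The 21 unbound genes were Zbtb3, Zbtb4, Zbtb5, Zbtb6, Zbtb8a, Zbtb8b, Zbtb9, Zbtb11, Zbtb16, Zbtb18, Zbtb20, Zbtb21, Zbtb22, Zbtb24, Zbtb26, Zbtb32, Zbtb38, Zbtb42, Zbtb43, Zbtb45 and Zbtb48. Their nearest summit was a median of 31.0 kb from a start site, from 3.43 to 256 kb. No gene sat near the limit: the farthest bound summit was at 541 bp (Zbtb2) and the nearest unbound one at 3429 bp (Zbtb42). Any window between these distances would give the same 20 genes.

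Of the 21 unbound genes, 6 had a summit within 10 kb (28.6%, interval 11.3 to 52.2), against 4.61% of all unbound protein-coding genes. Neither share was split by promoter composition or by the density of nearby genes. Of the 6, Zbtb6 and Zbtb26 overlap and had the same peak. All but the peak near Zbtb42 lay at the start of another gene. The summit 3429 bp upstream of Zbtb42 (12 fragments over 2.96, a fold of 3.28) was 1123 bp from a start of Akt1 and at no gene's promoter by the rule used here. The one 3976 bp from Zbtb32, a peak of 6.7, was at the start of the histone methyltransferase gene Kmt2b. Zbtb22 had a summit 6704 bp upstream at the start of Daxx (4.47), and Zbtb4 one 7197 bp upstream at that of Polr2a (4.93), the large subunit of RNA polymerase II.

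Zbtb6 and Zbtb26 overlap on chromosome 2, on the same strand and with nearly the same 5′ end, and therefore had the same nearest peak, that of Rabgap1 (4.73), 9049 bp and 9099 bp upstream. Zbtb34 and Zbtb43, side by side on chromosome 2, split: Zbtb34 was bound, and its summit was the nearest to Zbtb43, 31.0 kb away. On chromosome 4, Zbtb8a and Zbtb8b were unbound, and the summit nearest to Zbtb8a, 42.8 kb from its start, was that of Zbtb8os and Rbbp4. The peak nearest to Zbtb45, 14.9 kb away, was that of Trim28, the corepressor of KRAB zinc-finger proteins.

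Away from promoters, 3 of 41 Zbtb genes had a summit within their body (7.32%, interval 1.54 to 19.9), against 2.05% of all protein-coding genes, a value inside that interval. Zbtb20 had one in an intron, 63.7 kb from its nearest start (14 fragments over 1.7, a fold of 5.56), and was the one unbound member with a peak inside the gene. Zbtb7c had an intronic peak 51.2 kb from a start (4.34), and Zbtb7b one in untranslated exon sequence 8.59 kb from a start (3.53), both beside their promoter peaks. None of the 3 held AANATGGC within 100 bp of the summit.

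**Figure D5:**
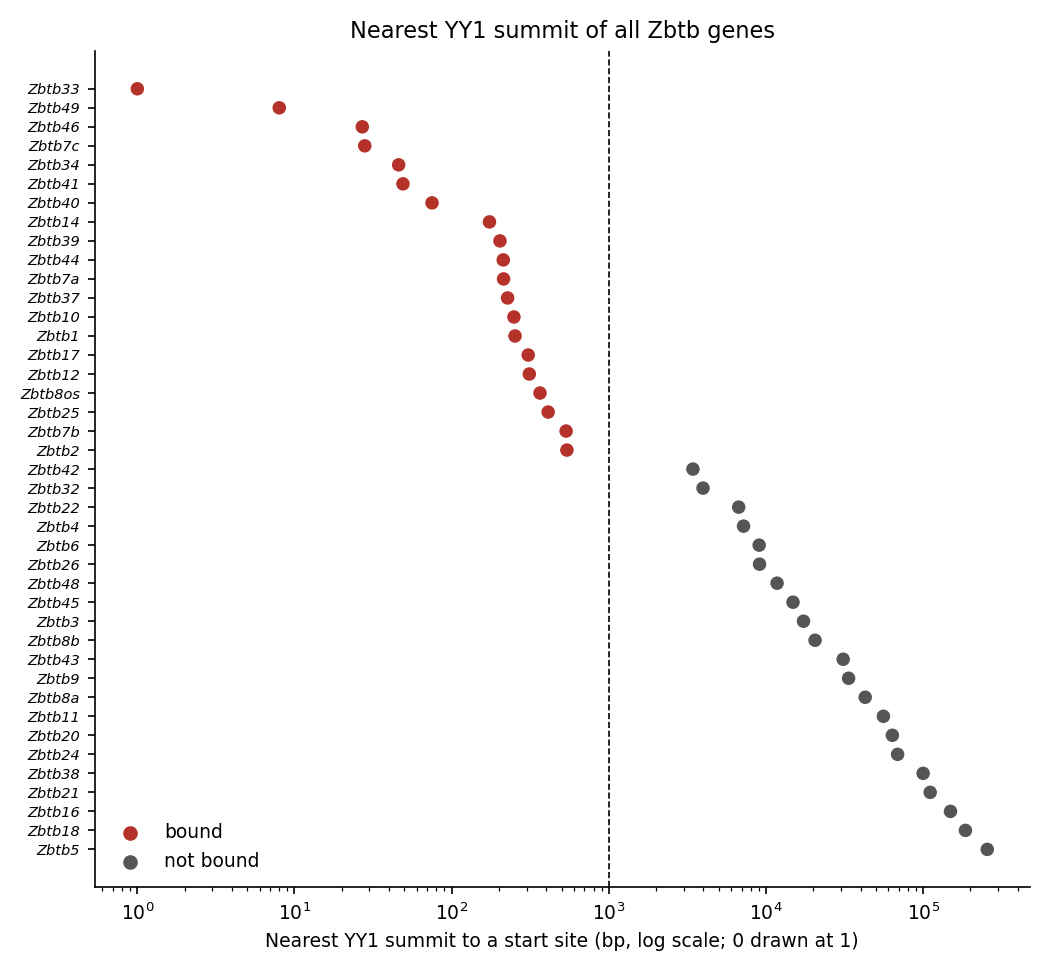
Distance from the nearest YY1 summit to a start site of each of the 41 Zbtb genes (x axis, bp on a log scale, with 0 drawn at 1), in red for bound and grey for unbound genes, and a dashed line at 1000 bp. No gene lies between 541 bp (Zbtb2) and 3429 bp (Zbtb42).

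Genes for corepressors and partners with which BTB zinc-finger factors work were examined from a separate list, of which single members are given here. Summits lay at the promoters of the corepressor gene Ncor1 (a fold enrichment of 5.04), the deacetylase gene Hdac2 (5.38), Sin3a (4.28), Cul3 (6.15), Nacc1 (5.7), Bach1 (5.3) and Bach2 (6.05). Hdac1, Hdac3 and Bcor were not bound. Yy1 itself was bound, with 17 fragments over a local background of 3.95, a fold of 3.64, while its relatives Yy2 and Zfp42 were not.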

How the data were processed

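YY1 ChIP-seq of 1 pool of MuSCs was analysed from its list of 4681 peaks. Per the labels and the study's methods, the authors trimmed and aligned the reads (Bowtie2, mm10), removed redundant ones and ran MACS2 against 1 background library. The deposited fold enrichment is a ratio of fragments to local background. The −log10 p-value and −log10 q-value deposited beside it come from the same Poisson model, and the authors' score column was not used. From fold and p-value, the fragments and local background were recovered as whole fragments for all 4681 peaks (tolerance 0.001). The local background seen most often, 1.54, and the narrowest peak, 215 bp, gave a depth of 13357713 fragments. Higher depth would let weaker sites pass.

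Peak summits were placed against transcript starts of the basic GENCODE annotation, leaving out 13 mitochondrial genes. Sequence was read from the GRCm38 genome. The Zbtb genes, the comparison lists and the role groups were chosen with earlier results of these data known. Every bound gene was named with values, every unbound one once, and those with a summit within 10 kb with values. No test between groups was possible with 1 library. Intervals are exact, at 95%. The recovery, placement and motif search were tested on simulated data. Python 3.11.15, numpy 2.4.6, pandas 2.3.3, scipy 1.17.1 and pysam 0.24.0 were used. Alternatives covered windows, start sites, peak limits, motif forms and annotation. Expression and contact data were not analysed here. One item of the list of corepressors and partners is not reported here, and no count over that list is given.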

Additional observations from a re-analysis of the deposited data

How the results depend on the processing

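No paired analysis was possible because there was 1 YY1 library and 1 background library, and for the same reason no replicate could be left out. Over 12 other choices the number of bound Zbtb genes ran from 13 (31.7%), when the fold enrichment had to reach 5, to 22 with a window of 5000 bp, which added Zbtb32 and Zbtb42. The limit of 5 removed Zbtb1, Zbtb7a, Zbtb7c, Zbtb8os, Zbtb25, Zbtb34 and Zbtb49 and lowered the share of all protein-coding genes to 11.1%. With 1 start site per gene, the 5′ end of its gene record, 17 remained, without Zbtb2, Zbtb7a and Zbtb12. Chosen after the data were seen, the comprehensive annotation and the starts of coding transcripts alone each kept the same 20 genes. In every setting the Zbtb share stayed above that of all protein-coding genes, Zfp genes and Klhl genes. It was below that of the other BTB zinc-finger genes in each setting computed for both except the fold enrichment of at least 5, where that group fell to 2 of 8, below the 31.7% of the Zbtb genes. Searching for the core ATGGC in place of AANATGGC raised the share of Zbtb peaks with a match to 26.3%. A CpG ratio of at least 0.75 lowered the CpG-rich share of unbound Zbtb genes to 38.1% and left that of bound genes at 19 of 20, and counting any start of a gene, an alternative added after the data were seen, gave 66.7%. The median fold enrichment ran from 5.32 to 5.52. Weak sites below about 8 fragments, the lowest number in any peak, are beyond the depth.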
